A study of Mus musculus with 4 samples.

Results

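Pigment cells are marked here by 10 genes, Tyr, Tyrp1, Dct, Pmel, Mlana, Sox10, Kit, Gpr143, Oca2 and Slc45a2, which were read on 4 arrays of cultured mouse keratinocytes as a measure of melanocyte RNA in each culture. They are 10 of the 30142 genes whose rows carry exactly 1 gene symbol. Each member had a single such row. The cultures came from C57BL/6J mice aged 1 week, either wild type or with Glut1, the glucose transporter encoded by Slc2a1, lacking in keratinocytes. There were 4 mice per genotype. Cells of each mouse were plated, reseeded after 3 days at 2000000 cells on collagen-coated plates in a serum-free keratinocyte medium with 0.05 mM CaCl2, EGF, insulin, hydrocortisone and pituitary extract, and harvested the next day. Per the labels, 2 plates of the same genotype were combined at random for each array, which gives 2 arrays per genotype, each from pooled animals. The labels do not name the driver of the deletion, nor say whether pigment cells in the culture carry it. Values are log2 signals, and a change is Glut1-deficient minus wild type on that scale with its standard error (SE), n = 2 per group.

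Melanocytes are neural crest cells that settle in the epidermis and hair follicles, where they make melanin inside melanosomes and pass it to keratinocytes. Tyrosinase (Tyr) starts the synthesis from tyrosine, and Dct and Tyrp1 act at later steps. Pmel forms the fibrils on which melanin is laid down, Mlana and Gpr143 act in melanosome formation, and Oca2 and Slc45a2 are melanosome transporters. Sox10 and the transcription factor Mitf drive the lineage, and Kit is the receptor through which Kit ligand supports it. Primary epidermal cultures can hold melanocytes beside the keratinocytes.

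The transcripts of 4 members, Tyrp1, Dct, Pmel and Mlana, stood above background on every array, and for all 4 both Glut1-deficient arrays lay above both wild-type arrays. Only Pmel rose by the test, and the 2 Glut1-deficient arrays differed from each other by up to 1.32. Background was taken as the 95th percentile of 23 background control rows of the array, which gave floors of 4.36 and 4.70 in the wild-type arrays and 4.87 and 4.63 in the Glut1-deficient arrays, replicate 1 first.

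Tyrp1, a melanosome enzyme that stabilises tyrosinase, was the brightest member, at 10.25 and 9.67 in wild-type replicates 1 and 2 and at 12.11 and 10.80 in Glut1-deficient replicates 1 and 2. Its groups did not overlap, but the Glut1-deficient arrays were 1.32 apart and the wild-type arrays 0.57 apart. The change was 1.49 (SE 0.46), or 2.81-fold, with a limma adjusted p of 0.136.

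Dct, dopachrome tautomerase, read 7.06 and 6.53 in the wild-type arrays and 9.22 and 8.04 in the Glut1-deficient arrays. As for Tyrp1, replicate 1 was the higher array in both genotypes. The change was 1.84 (SE 0.41), or 3.57-fold, with an adjusted p of 0.0670.

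Pmel, the fibril protein, read 5.44 and 5.23 in the wild-type arrays and 6.59 and 6.16 in the Glut1-deficient arrays. It had the smallest gap between the Glut1-deficient arrays of the 4 genes, 0.44. Pmel rose by 1.04 (SE 0.18), or 2.06-fold, with an adjusted p of 0.0341. Pmel no longer passed when Glut1-deficient replicate 1 was left out (adjusted p = 0.0962), nor without wild-type replicate 1 (0.0903) or replicate 2 (0.122). Over all alternatives its adjusted p ran from 0.0146 to 0.140, the highest with every row of the table tested. In that test Gpnmb, Mcoln3, Mlph and Lif were the only genes named below that still passed. That test drew all other rows, controls included, into the variance moderation as well as into the correction.

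Mlana, also known as Melan-A, read 4.93 and 5.16 in the wild-type arrays and 6.57 and 5.65 in the Glut1-deficient arrays. The wild-type arrays were here in the opposite order to the other 3 genes. The change was 1.06 (SE 0.31), or 2.09-fold, with an adjusted p of 0.120.

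**Figure D1:**
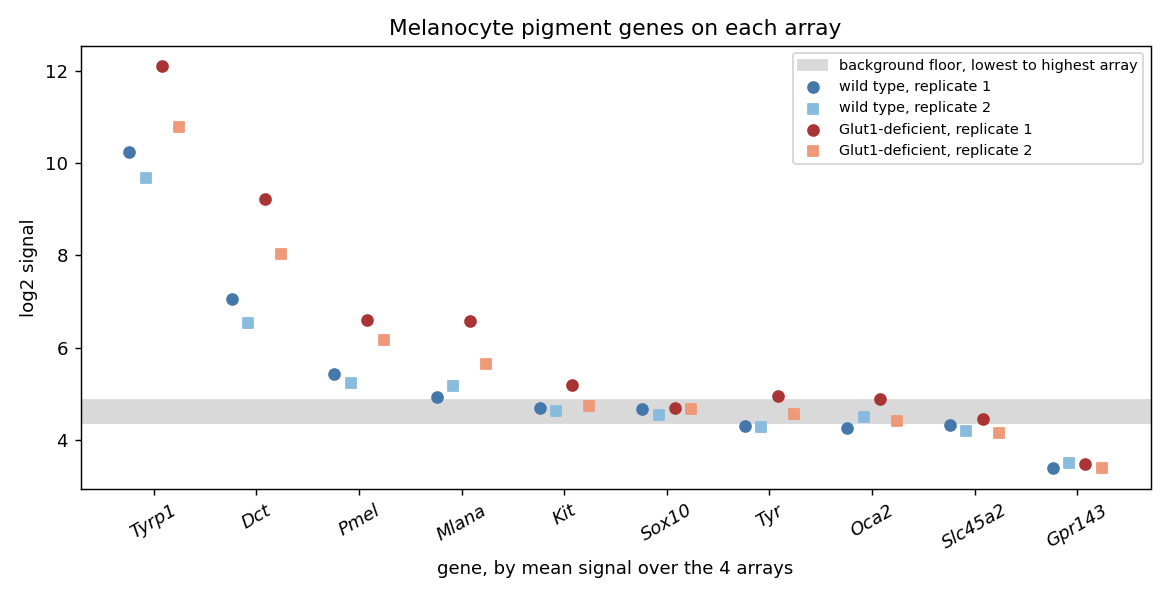
Log2 signal (vertical axis) of each of the 10 genes (horizontal axis, ordered by mean signal) on the 4 arrays, 1 point per array, with the grey band spanning the floors of the 4 arrays, 4.36 to 4.87. Tyrp1, Dct, Pmel and Mlana lie above the band on every array, with Glut1-deficient replicate 1 highest, and the other 6 genes lie in, below or just above it.

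The other 6 members were close to the floor, so their values say little about a change. Kit, the receptor, read 4.69, 4.63, 5.19 and 4.73 in the same array order and was above the floor on 3 of the 4 arrays. Its change was 0.30 (SE 0.17, adjusted p = 0.407), without overlap between the groups. Tyr was at or below the floor on both wild-type arrays, 4.29 and 4.27, and above it only in Glut1-deficient replicate 1, at 4.95 against 4.57 in replicate 2. Its groups did not overlap, and its change did not pass (adjusted p = 0.146). Oca2 was likewise above the floor only in Glut1-deficient replicate 1, at 4.88. Its replicate 2, at 4.41, lay between the wild-type arrays (4.26 and 4.50), so the groups overlapped (adjusted p = 0.526). Sox10, the lineage regulator, stayed between 4.54 and 4.68 on all arrays and crossed the floor on 1 array of each genotype (adjusted p = 0.803). Gpr143 and Slc45a2 were not above the floor on any array.

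Over the whole list, 1 of 10 members passed, in the direction of a rise, beside 4.11% of all 30604 rows that passed as higher and 7.22% that passed in either direction. In 6 of 10 members both Glut1-deficient arrays exceeded both wild-type arrays, against 23.8% of all rows. For the 4 members above the floor on every array this was 4 of 4, against 33.6% of the 14194 rows with that property, of which 8.26% passed as higher. The median change was 0.39 over the 10 members and 1.28 over those 4, where the median over all rows was -0.01. In these bulk samples, more melanocytes in a culture and more pigment RNA per melanocyte cannot be told apart.

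The count of members that passed depended on which array was left out. Fewer of all rows passed in each of these fits than with all 4 arrays. The Glut1-deficient arrays are given first. Without replicate 2, which left replicate 1 as the lone Glut1-deficient array, Tyrp1, Dct, Pmel and Mlana all passed (adjusted p = 0.0477, 0.0378, 0.0415 and 0.0351). Without replicate 1 no member passed, and the 4 changes were 0.83, 1.24, 0.82 and 0.60, with adjusted p-values from 0.0962 to 0.244. Leaving out either wild-type array also left 0 members, with the 4 changes between 0.94 and 2.10. The sign of these 4 changes was positive in every fit.

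Read array by array, Glut1-deficient replicate 1 carried the most pigment-gene signal. It was the highest array for 9 of 10 members, against 33.6% of all rows. For the detected members this was 4 of 4, against 34.1% of rows above the floor. The other members were close to the floor, and Sox10 counted by a small margin (4.68 against 4.66 in wild-type replicate 1). After quantile normalization or median centring its highest array was wild-type replicate 1. Against the mean of the wild-type arrays, Glut1-deficient replicate 1 was higher by 2.15 for Tyrp1, 2.43 for Dct, 1.26 for Pmel and 1.52 for Mlana. Replicate 2 was higher by 0.83, 1.24, 0.82 and 0.60 for the same genes. The linear signal summed over the 10 members, most of it from Tyrp1, was 1545 and 1103 in the wild-type arrays and 5377 and 2287 in the Glut1-deficient arrays. Replicate 1 therefore exceeded its partner in both genotypes, and the sums of the genotypes did not overlap.

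**Figure D2:**
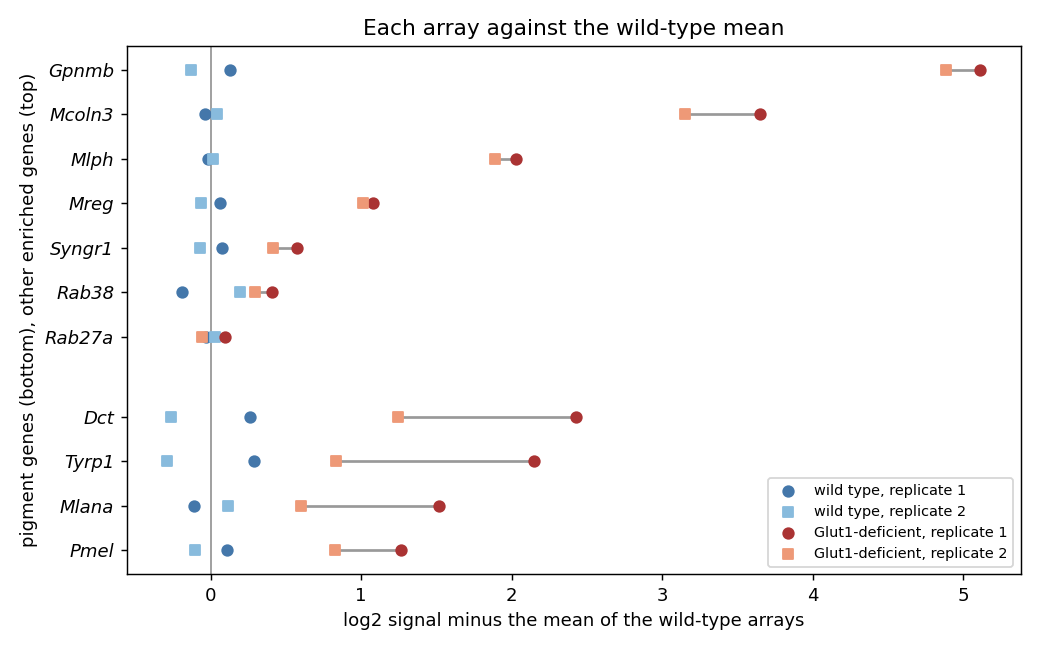
Log2 signal of each array minus the mean of the wild-type arrays (horizontal axis) for the 4 pigment genes above the floor (lower block) and 7 other genes enriched in pigment cells that are above it (upper block), 1 point per array, with a grey line joining the Glut1-deficient arrays. The joined points are 0.44 to 1.32 apart in the lower block and 0.07 to 0.50 apart in the upper block.

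The gaps between the Glut1-deficient arrays were set against those of all rows above the floor on every array. The counts include the members themselves. Of the 14194 rows above the floor on every array, 9 had replicate 1 above replicate 2 by as much as Tyrp1 (0.0634%), 14 by as much as Dct (0.0986%), 37 by as much as Mlana (0.261%) and 492 by as much as Pmel (3.47%). Counting gaps in either direction, 0.317% of these rows differed by as much as Tyrp1, 0.486% as Dct, 1.13% as Mlana and 9.87% as Pmel, so the gap of Pmel was not unusual. The median of this gap over those rows was 0.02. All 10 members had a higher value in replicate 1, as did 60.4% of all rows. After quantile normalization and after centring arrays on their medians, Sox10 turned to -0.01 in both and the other 9 members stayed positive. The labels name no batch that separates these arrays, and whether the gap comes from the animals, the plates or the array processing was not tested.

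**Figure D3:**
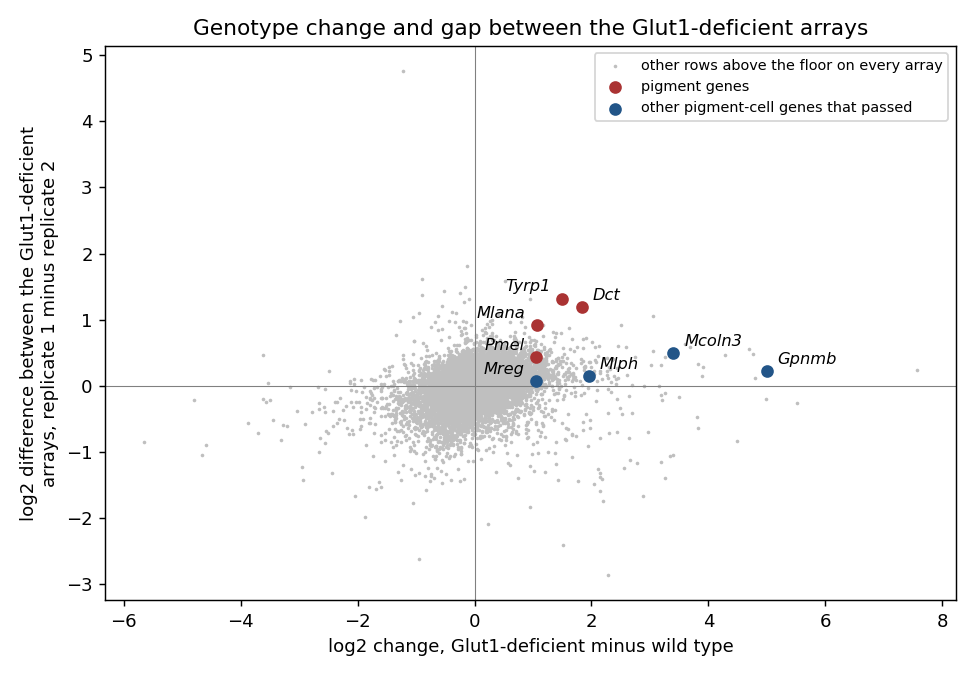
Genotype change (horizontal axis, log2) against the gap between the Glut1-deficient arrays, replicate 1 minus replicate 2 (vertical axis, log2), for the 14194 rows above the floor on every array, 1 point per row. Tyrp1, Dct and Mlana lie near the upper edge of the cloud, with gaps of 1.32, 1.19 and 0.92. Mreg, Mlph, Mcoln3 and Gpnmb, marked because they passed the test, have genotype changes of 1.05 to 5.00 and gaps of 0.07 to 0.50. A single row far above the cloud has a gap of 4.76 and is Cd200.

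The mean centred profile of the 4 detected members was compared with that of 10274 other named genes above the floor on every array. The nearest by root mean square distance over the 4 arrays were Dusp4, a MAP kinase phosphatase gene (0.06), Vegfb, a vascular growth factor gene (0.12), Sphk2, a sphingosine kinase gene (0.14), and Sesn2, a sestrin gene (0.14). The members themselves were 0.18 (Tyrp1) to 0.27 (Dct) away. The nearest genes do not define pigment cells. Dusp4, for example, read 8.31 and 8.07 in the wild-type arrays and 9.94 and 9.13 in the Glut1-deficient arrays. A search of 10274 genes over 4 arrays will return close matches, so their closeness does not show how particular the profile is. These 4 genes were chosen for their profile, so no test of their genotype change is given.

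The promoters of the enzyme genes show a known feature of this gene set, the M-box, an element with TCATGTG at its core that Mitf binds. RefSeq promoter windows (GRCm38.p6, 250 bases before to 50 after a start) were at hand for 5 of the 10 members, Tyrp1, Dct, Tyr, Kit and Oca2. TCATGTG or its reverse complement CACATGA occurred in 3 of the 5, Tyrp1, Dct and Tyr. Over all 27025 genes with a window the share was 4.31%, and 3.77% of the 32851 windows. The stretches below, read 5′ to 3′ on the coding strand and ending before the start, show the match in its context, with the 10 bases shared by all 3 genes in capitals. They lie at chr4:80834106-80834202 on the plus strand (Tyrp1), chr14:118052361-118052457 on the minus strand (Dct) and chr7:87493513-87493594 on the minus strand (Tyr).
Tyrp1: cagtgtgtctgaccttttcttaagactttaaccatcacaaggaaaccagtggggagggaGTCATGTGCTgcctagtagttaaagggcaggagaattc
Dct: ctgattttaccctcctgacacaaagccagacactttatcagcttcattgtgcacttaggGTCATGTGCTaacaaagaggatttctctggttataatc
Tyr: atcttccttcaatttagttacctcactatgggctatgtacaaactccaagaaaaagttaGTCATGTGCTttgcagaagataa

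The core begins at -47 from the start in Tyrp1, -151 in Dct and -22 in Tyr, and Dct has a further match on the opposite strand at -232. The 10 shared bases, GTCATGTGCT, occur on either strand in 61 of the 32851 windows (0.186%). The E-box CACGTG is a related sequence that reads the same on both strands and is never itself a match to the M-box core. It was in 0 of the 5 genes, against 8.09% of all genes with a window and 7.15% of all windows. These matches are letters in a reference sequence, and binding was not measured.

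Among 13 measured regulators and receptors of the lineage, 2 passed as higher and none as lower, beside 4.11% of all rows higher and 3.11% lower, with a median change of 0.10. Tfap2a, a transcription factor gene that keratinocytes also express, rose by 0.73 (SE 0.11, adjusted p = 0.0252), from 10.33 and 10.36 to 11.17 and 10.98. Ednrb, the endothelin receptor of melanocytes, was not above the floor on either wild-type array (4.34 and 4.36) and read 5.11 and 4.89 in the Glut1-deficient arrays, at least 1.38-fold higher against the floor (adjusted p = 0.0372). Tfap2a passed without Glut1-deficient replicate 2 but not without any other single array (0.0943 to 0.122). Ednrb passed in none of the fits that left out 1 array (0.0533 to 0.161) and not with the replicate block (0.0535).

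Mitf, named here after its values were seen, read 5.00 and 5.15 in the wild-type arrays and 5.54 and 5.48 in the Glut1-deficient arrays. These groups did not overlap, the Glut1-deficient arrays were 0.06 apart, and the change of 0.43 (SE 0.10) did not pass (adjusted p = 0.0748, and 0.0491 when only rows with at least the median mean signal were tested). The row does not separate the melanocyte form of Mitf from its other forms. Pax3, an upstream regulator, differed by 0.50 (adjusted p = 0.0520, and 0.0479 after quantile normalization) but was not above the floor on any array, and Lef1 differed by 0.76 (adjusted p = 0.0532) with 1 array above it. Mc1r, the melanocortin receptor, was below the floor throughout.

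Of 12 other genes enriched in pigment cells, 4 passed as higher and none as lower, with a median change of 0.26. Over all rows 4.11% passed as higher, and 8.26% of rows above the floor on every array, where 7 of the 12 genes lay. The risers were Gpnmb, a melanosome and lysosome glycoprotein gene (5.00, SE 0.14, adjusted p = 0.00156), Mcoln3, an endolysosomal channel gene (3.40, SE 0.18, 0.00344), Mlph, which links melanosomes to their motor (1.96, SE 0.10, 0.00340), and Mreg, which acts in melanosome transfer (1.05, SE 0.10, 0.0107). Mlph read 5.55 and 5.58 in the wild-type arrays and 7.59 and 7.45 in the Glut1-deficient arrays. Mreg read 5.74 and 5.62, then 6.76 and 6.69. In these 4 genes the Glut1-deficient arrays were 0.22, 0.50, 0.14 and 0.07 apart, beside 0.44 to 1.32 in Tyrp1, Dct, Pmel and Mlana. The test that picked these 4 genes favours a small gap. Over all 7 genes of this list above the floor on every array, passing or not, the gaps were 0.07 to 0.50. Mreg did not pass without wild-type replicate 2 (adjusted p = 0.0521) or without Glut1-deficient replicate 1 (0.0620). The pigment-cell channel gene Trpm1 was below the floor on every array. Slc24a5, a melanosome exchanger, read 4.63 and 4.48 in the wild-type and 4.85 and 4.59 in the Glut1-deficient arrays. It was above the floor only on wild-type replicate 1, the array with the lowest floor (4.36). Gpnmb, Mcoln3, Mlph and Mreg are also expressed outside pigment cells, and which cells carried the signal was not measured.

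The broadly expressed machinery that builds melanosomes and other lysosome-related organelles was mostly short of the threshold: 3 of 26 genes passed as higher and none as lower, with a median change of 0.21. Of these genes 25 were above the floor on every array, where 8.26% of all rows passed as higher, so the count was near the background. Hps3, of the BLOC-2 complex, rose by 0.78 (SE 0.09, adjusted p = 0.0161), Lyst by 0.62 (SE 0.09, 0.0247) and Dtnbp1, of the BLOC-1 complex, by 0.53 (SE 0.10, 0.0407). None of the 3 passed without either wild-type array or without Glut1-deficient replicate 1, and of the 3 only Hps3 passed without replicate 2. Among 5 measured genes of the switch between pigment types, Slc7a11, the cystine transporter used for red-yellow pigment and by many other cells, rose by 1.86 (SE 0.20, adjusted p = 0.0146), the cystine exporter gene Ctns by 1.09 (SE 0.15, 0.0206) and Cpe, a prohormone-processing enzyme gene, by 0.58 (SE 0.10, 0.0317). The other 2 did not pass and none fell. All 5 genes were above the floor on every array, where 8.26% of rows passed as higher, beside 4.11% of all rows. Cpe passed in none of the fits that left out 1 array (0.0882 to 0.173), nor after quantile normalization (0.152) or with the replicate block (0.0606). Ctns passed without Glut1-deficient replicate 2 but not without any other single array (0.0661 to 0.0888).

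The secreted signals by which skin cells act on melanocytes moved in both directions. Of 12 measured ligands, 1 rose, 4 fell and 7 did not pass, beside 4.11% of all rows higher and 3.11% lower. Kitl, the ligand of Kit, read 6.55 and 6.29 in the wild-type arrays and 8.49 and 8.56 in the Glut1-deficient arrays, a rise of 2.10 (SE 0.12, adjusted p = 0.00434). The Glut1-deficient arrays were 0.07 apart for Kitl, replicate 2 the higher. Edn1, the endothelin that acts on Ednrb, read 14.22 and 14.15, then 12.07 and 12.40, and fell by 1.95 (SE 0.14, adjusted p = 0.00556). Among cytokine genes, Lif fell by 1.93 (SE 0.10, adjusted p = 0.00317) and Csf2, which encodes GM-CSF, fell by 3.27 (SE 0.21, 0.00508). The fourth was Il1a, named after its values were seen, which fell by 0.94 (SE 0.13, 0.0211) and passed without Glut1-deficient replicate 2 but not without any other single array (0.0744 to 0.0962). Pomc and Edn3, precursors of melanocortin and endothelin 3, did not pass (adjusted p = 0.789 and 0.972). Pomc read 4.42 to 4.63 and was above the floor only on wild-type replicate 1, and Edn3 was below the floor on every array. Kitl passed whichever array was left out, and its adjusted p was 0.0515 with every row of the table tested.

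**Figure D4:**
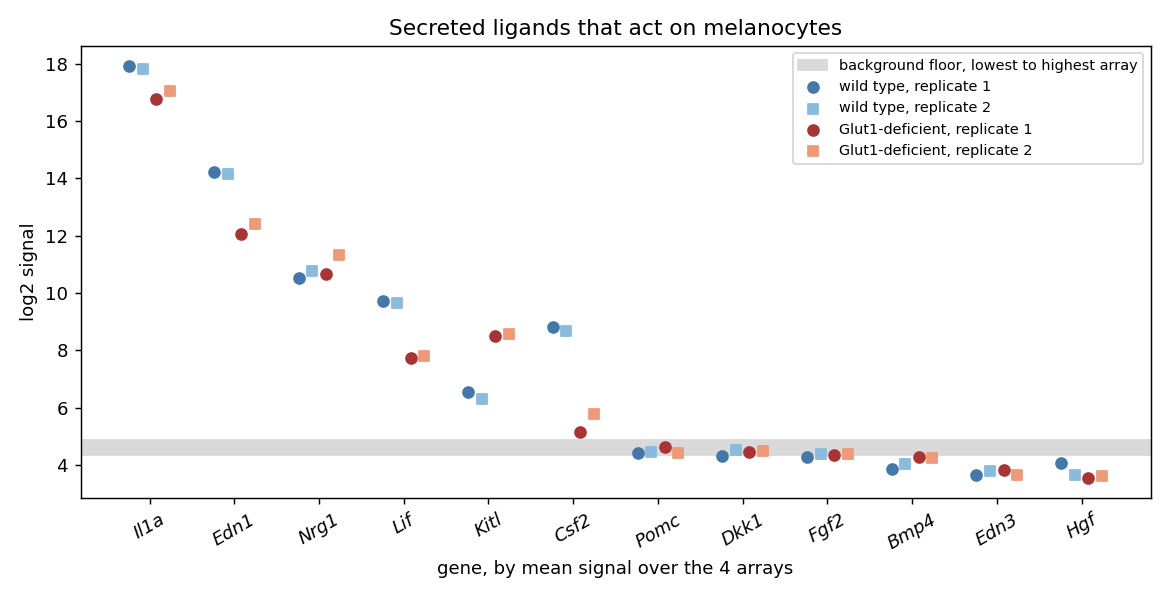
Log2 signal (vertical axis) of 12 ligand genes (horizontal axis, ordered by mean signal) on the 4 arrays, 1 point per array, with the grey band spanning the floors of the 4 arrays. Kitl is higher and Il1a, Edn1, Lif and Csf2 are lower in both Glut1-deficient arrays than in both wild-type arrays. Below the band, Bmp4 is also higher and Hgf also lower without overlap, and neither passed.

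Some members are not private to melanocytes, and markers of the cell types that share them were read on the same arrays. In all, 7.22% of rows passed in either direction, so a count of 0 in so short a list says little. Mast cells also express Kit: of 10 mast cell genes 0 passed. Of these genes 9 were below the floor on every array, the defining genes Cpa3, Mcpt4 and Tpsb2 among them. Schwann cells also express Sox10: of 9 measured Schwann cell genes 0 passed. S100b, Cdh19, Foxd3 and Gfap were below the floor on every array, while Mbp, Egr2, Pmp22 and Erbb3 were above it on every array. Mbp read 5.48 and 5.57 in the wild-type and 5.86 and 5.67 in the Glut1-deficient arrays, without overlap (adjusted p = 0.308). Both Glut1-deficient arrays lay above both wild-type arrays in 3 of the 9 genes and below in 4 (23.8% and 25.8% of all rows). The linear signal summed over the 9 genes was 2801 to 2929 in the wild-type and 2566 to 2614 in the Glut1-deficient arrays. Most of it came from Pmp22 and Erbb3, which keratinocytes express too.

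Fibroblast genes were low: of 8 measured genes 2 were above the floor on every array and 2 on none. Of the 8, 1 passed, as higher, beside 4.11% of all rows. In 8 of 8 both Glut1-deficient arrays exceeded both wild-type arrays, against 23.8% of all rows, with a median change of 0.41. Dcn, decorin, rose from below the floor (4.08 and 3.82) to 5.28 and 5.97, at least 2.14-fold (adjusted p = 0.0250, and 0.0697 and 0.0834 without wild-type replicate 1 and 2). The summed signal of the list was 154 to 168 in the wild-type and 253 to 304 in the Glut1-deficient arrays. Here Glut1-deficient replicate 2 was the higher array, opposite to the pigment genes, in 6 of 8 genes. The part of either cell type in the pigment result was not tested. Of 9 keratinocyte genes, 8 were above the floor on every array and 1 fell, beside 3.11% of all rows, Col17a1 (adjusted p = 0.0181, and 0.0567 to 0.0883 with 1 array left out). The keratins Krt5 and Krt14 ranged from 16.97 to 18.69 and were lower in the Glut1-deficient arrays. Their adjusted p-values were 0.0994 and 0.122, and 0.0354 and 0.0403 after quantile normalization. In 6 of the 9 keratinocyte genes both Glut1-deficient arrays lay below both wild-type arrays, against 25.8% of all rows. In the other 3, Perp, Dsp and Trp63, they lay above, against 23.8%. Perp differed by 0.52 (adjusted p = 0.0848).

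In the endothelial, Langerhans and T cell, and Merkel cell lists 1 of 7, 0 of 6 and 2 of 7 measured genes passed, beside 7.22% of all rows in either direction. Those were Kdr, which rose by 3.60 while Cdh5, Tek and Cldn5 stayed below the floor, and Krt8 and Krt18, which fell by 2.25 and 1.48 and are also made by other epithelial cells. Slc2a1, the targeted gene, read 13.26 and 13.40 in the wild-type arrays and 12.09 and 12.01 in the Glut1-deficient arrays, a fall of 1.28 (SE 0.10, adjusted p = 0.00754, and 0.0508 without Glut1-deficient replicate 1). The row may hold probes outside the deleted part. Over the 30604 rows, arrays of 1 genotype correlated at 0.998 (wild type) and 0.997 (Glut1-deficient), and arrays of different genotypes at 0.989 to 0.992.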

How the data were processed

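The authors deposited log2 signals, 1 per transcript cluster, from Affymetrix MTA-1_0 arrays. Per the submitters' processing notes they used RMA in Affymetrix Expression Console, and the labels name the values gene-level SST-RMA. Software versions and the genome build were not given in the sources used here. This RMA method removes background and equalises array distributions, so a shift of most genes would be removed, and low signals are compressed. Of 72688 rows, 6732 were controls, and 30604 had 1 gene symbol in the platform table (22818 matched to RefSeq by Entrez identifier, 827 symbols updated). The brightest row stood for a gene. These rows were fitted with limma 3.58.1 in R 4.3.3 (lmFit, eBayes, two-sided, Benjamini-Hochberg adjusted p under 0.05 called), without a replicate block. A bound against the floor is printed only where both arrays of 1 group lay at or below it and both of the other above. The fit was tested on simulated data. Alternatives varied normalization, rows tested, variance moderation, replicate block and each array. Where other rows were tested, the variance moderation was also refitted on those rows. The p-values measure the spread between pooled samples, which may partly be technical, and 2 arrays per group limit the precision. The members and lists were chosen with earlier results of these data known. Named genes are Slc2a1, the members, up to 4 genes with the smallest p of each list (2 where none passed), the 3 brightest of each marker list and 4 genes of like profile. Listed genes without a row of exactly 1 symbol were not analysed here.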

Additional observations from a re-analysis of the deposited data

How the results depend on the processing

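The 2209 rows that passed became 74 with every row of the table tested, and 314 to 1214 with 1 array left out. The 1 member that passed became 0 with every row tested, 2 when only rows with at least the median mean signal were tested, and 0 to 4 with 1 array left out. The same replicate numbers do not mark shared animals, since plates were combined at random. With the replicate block 3 members passed (Tyrp1, Dct and Pmel), and 1849 rows. The replicate differences of the genotypes correlated at -0.233 over rows, and with the numbers crossed, an alternative chosen after seeing the data, 0 members and 2039 rows passed. The median change of the members was 1.06 among those brighter rows, which hold 5 members, and over the 5 members above the floor on all arrays of a genotype, and 0.18 to 0.60 with 1 array left out. With every row tested, the counts of higher genes became 0 for regulators, organelle machinery, ligands and pigment type, and 1 ligand, Lif, was lower. Higher regulators numbered 3 after quantile normalization, after centring, with crossed numbers and among brighter rows, and 1 with the block; higher organelle genes numbered 5 among brighter rows, higher pigment type genes 2 with the block, crossed or after quantile normalization. With 1 array left out, higher regulators and organelle genes numbered 0 to 1, pigment type genes 1 to 2, and lower ligands 3 to 4. No member changed the direction of a called value. With 1 array left out, a lone sample is assumed to vary like the other group.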
